A study of Mus musculus with 3 samples.

Results

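The genes described here are 10 kinases of the calcium and calmodulin family, taken by name: Camk2a, Camk2b, Camk2d, Camk2g, Camk4, Camk1, Camk1d, Camkk1, Camkk2 and Camkv. They are 10 of the 32531 genes with a row in the count tables, and each of the 10 had a row. Ribosome-bound RNA was purified from dentate gyrus dissected from adult, untreated Penk-EGFP/Rpl10a (NIDA186) mice on the C57BL/6J strain and sequenced. In this line the ribosomal protein Rpl10a carries a green fluorescent tag made under regulatory DNA from the proenkephalin gene, Penk, and tagged ribosomes are pulled down with an antibody against the tag (translating ribosome affinity purification, TRAP). The labels put all 3 immunopurified libraries in 1 group, replicates 1 to 3, and name no animal for any of them, so some of the spread may be technical. Since no whole-tissue or unbound RNA was used here, genes were compared with each other inside a library and the libraries with each other as replicates, and fewer cells of a type cannot be told apart from less RNA per cell. Which cells carried the tag is not given by the labels beyond the Penk regulatory DNA.

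When calcium enters a neuron it binds calmodulin, and calcium-loaded calmodulin switches these kinases on. CaMKII, encoded by Camk2a, Camk2b, Camk2d and Camk2g, assembles into large holoenzymes whose subunits phosphorylate each other and so stay active after calcium falls, a property known for its part in strengthening hippocampal synapses. CaMKI and CaMKIV (Camk1, Camk1d, Camk4) need, besides calmodulin, a phosphate added by the upstream kinases encoded by Camkk1 and Camkk2. CaMKIV is known for phosphorylating the transcription factor CREB in the nucleus. Camkv encodes a relative that binds calmodulin but lacks kinase activity.

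Because these kinases are paralogs, reads could in principle be shared between them, so their annotated transcripts were compared letter for letter. None of the windows of 50 bases in the transcripts of any of the 10 genes occurred in another of them. The longest coding runs that Camk2b, Camk2d and Camk2g share in pairs are shown, as the longest exact matches within their annotated coding sequence. Untranslated sequence, pairs with Camk2a and reads aligned with mismatches were not covered by this search. The runs are in lower case throughout, since every letter matches, and come from the GENCODE vM21 transcripts on GRCm38.
Camk2b and Camk2g: agagagtactacagtgaagctgatgccag
Camk2b and Camk2d: atgctgaccatcaaccctgccaa
Camk2d and Camk2g: atcaacaatggggactttgaggc
The first run is 29 bases long and lies in coding exons at chr11:5997883-5997911 in Camk2b and chr14:20770064-20770092 in Camk2g, on the minus strand of both. The second, of 23 bases, lies at chr11:5989375-5989397 (minus strand) in Camk2b and chr3:126796895-126796917 (plus strand) in Camk2d. The third, also of 23 bases, lies at chr3:126834621-126834643 (plus strand) in Camk2d and chr14:20739333-20739355 (minus strand) in Camk2g. None of the 3 runs occurs in a Camk2a transcript. A few windows did match genes outside the family, 0.253% of those in Camk2a and 0.106% of those in Camk2b, and 0% in the other 8 genes. Exons of Camk1 overlap Ogg1 on the opposite strand over 232 bases (3.88% of its exon length) and those of Camk4 overlap 2310026I22Rik over 72 bases (2.21%). The strand setting of the counting was not given in the sources used here, so reads there may belong to either gene.

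The libraries differed in depth, with 5348761, 19195559 and 11059982 counts on genes in replicates 1 to 3. Of all that the counter recorded, 16.3, 38.2 and 21.1% fell on genes and 50.7, 35.4 and 40.5% on no annotated feature. Genes with at least 10 counts numbered 8795, 14252 and 12019. Granule cell markers had a summed level of 1940, 2125 and 983 CPM (a gene's counts relative to its library's total, adjusted between libraries by TMM factors), although Calb1, 1 of the 6, had 2 counts in replicate 1, within the 3-count limit of a gene at 0. Astrocyte markers summed to 3025, 1341 and 3114 CPM and oligodendrocyte markers to 877, 733 and 1204. The astrocyte sum was above the granule cell sum in replicates 1 and 3, the oligodendrocyte sum in replicate 3. Most of the astrocyte sum came from Slc1a2 alone, with 2874, 1228 and 2796 CPM. The 6 microglial markers summed to 3.30, 6.90 and 21.5 CPM, with C1qa at 0 counts throughout. Penk itself had 58, 1511 and 142 counts, or 13.7, 66.0 and 12.1 CPM. Levels of different genes are compared below per kilobase of exon (CPM per kb), with the length of all annotated exons of the gene, and a gene's level is also given on the log2 scale against the median tested gene of the same library. A gene was called above that median when limma's TREAT test put its level beyond a log2 threshold of 1 at an adjusted p under 0.05 over all 8162 tested genes.

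Of the 10 kinase genes, 9 passed the filter on low counts, which Camk1 did not. Called above the median gene were 4 (Camk2a, Camk4, Camk1d and Camk2b), against 9.58% of all tested genes, and 0 were called below it, against 3.57%. The 9 genes spanned log2 levels from 7.69 for Camk2a to -1.90 for Camk2d. The alpha and beta CaMKII genes, the CaMKIV gene and 1 CaMKI gene thus lay high, while both upstream kinases, the pseudokinase and the gamma and delta CaMKII genes did not pass the test.

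**Figure D1:**
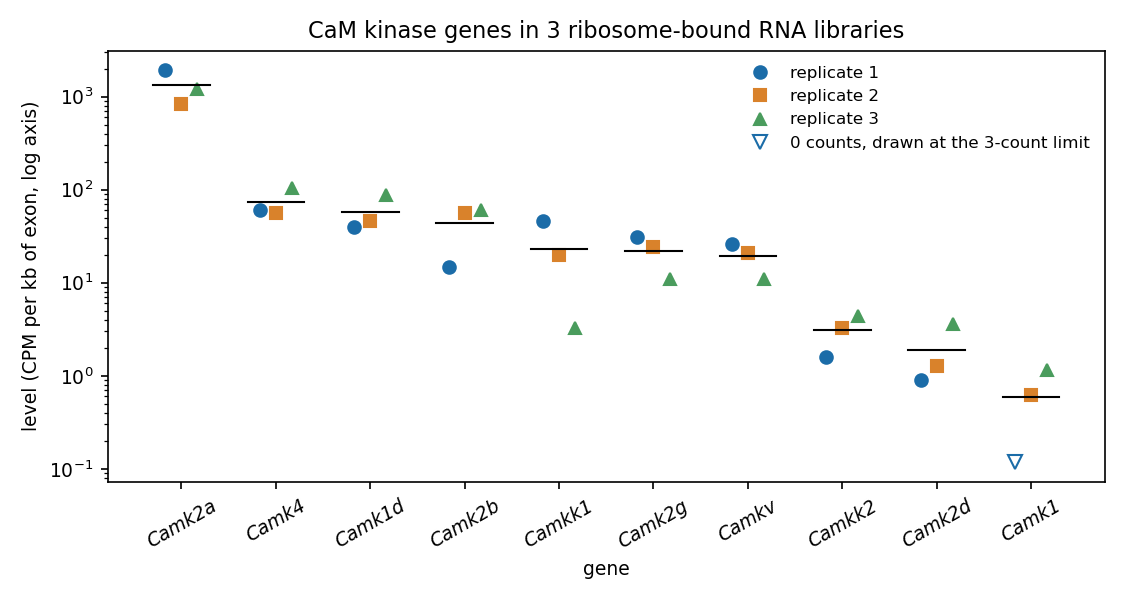
Level of the 10 kinase genes in CPM per kb of exon on a log axis, 1 symbol per library and a black bar at the mean of 3 libraries. Camk2a lies between 824 and 1917 CPM per kb, above every other member in each library, and Camk1, with 0 counts in replicate 1, is drawn there at its 3-count limit of 0.118.

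Camk2a, the alpha subunit gene of CaMKII, whose RNA is carried into dendrites and translated there, lies on chromosome 18 from 60925618 to 60988152 (plus strand). It had 60709, 140973 and 106248 counts, or 1917, 824 and 1218 CPM per kb in replicates 1 to 3. Replicate 1 was highest and replicate 2 lowest, with a 2.33-fold range. Its log2 level against the median gene was 8.43, 7.01 and 7.62 in the 3 libraries, a mean of 7.69 (SE 0.55, adjusted p = 3.8e-06, limma), or 207-fold. By level per kb it ranked 3, 9 and 3 among the 8162 tested genes, and 4 by its mean. This single gene took 1.14% of all gene counts in replicate 1 (Wilson 95% interval 1.13 to 1.14), 0.734% in replicate 2 (0.731 to 0.738) and 0.961% in replicate 3 (0.955 to 0.966); PCR copies are not independent, so such intervals cover the counting error and nothing else. Of the counts on the 10 kinase genes it held 92.7% (92.5 to 92.9), 81.4% (81.2 to 81.5) and 83.6% (83.3 to 83.8).

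The tested genes nearest to Camk2a in mean level per kb were Malat1, a nuclear noncoding RNA, and Calm2, a calmodulin gene, just above it, and Vsnl1, a neuronal calcium sensor gene, and Ywhaz, a 14-3-3 protein gene, just below. Calm2 had 687, 3389 and 604 CPM per kb and Vsnl1 336, 1883 and 1189, so both were highest in replicate 2, where Camk2a was lowest. Ywhaz had 924, 1534 and 861 CPM per kb, again highest in replicate 2. Malat1 had 12120, 2375 and 4707 CPM per kb, with replicate 1 highest and replicate 2 lowest, the order of Camk2a. These genes were named for their level, and 3 libraries are too few for a correlation.

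**Figure D2:**
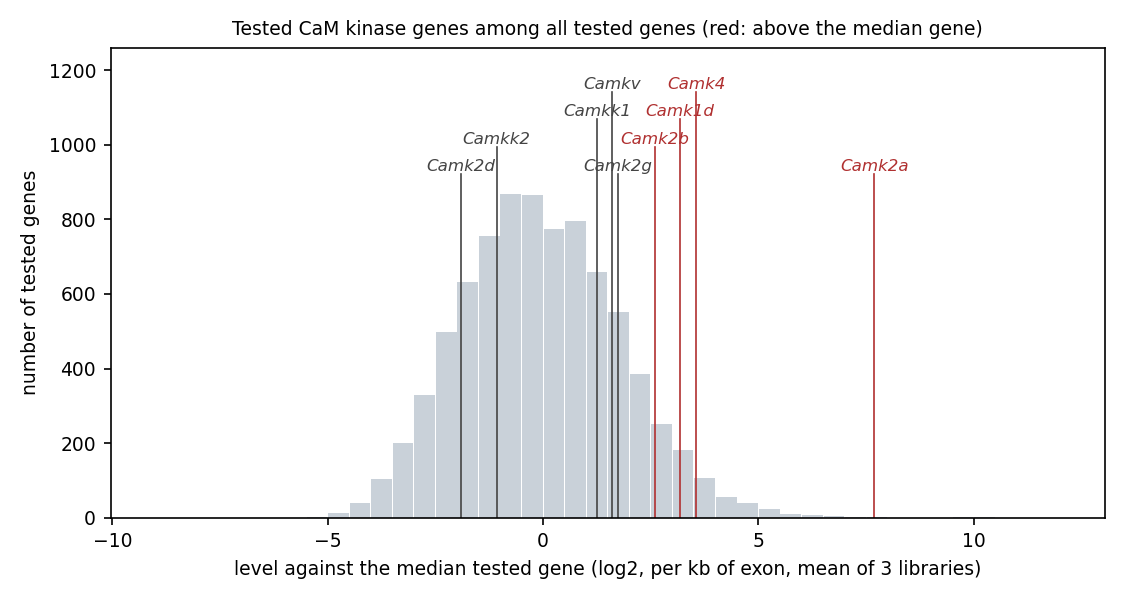
Number of tested genes in bins of 0.5 of the log2 level against the median tested gene per kb of exon, with the 9 tested kinase genes as vertical lines. The 4 red lines mark genes called above the median gene, from Camk2b at 2.60 to Camk2a at 7.69; the other 5 lie between -1.90 and 1.74.

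Camk2b, the beta subunit gene, whose product also binds actin filaments (chromosome 11, 5969644 to 6066362, minus strand), had 564, 11592 and 6440 counts. That is 14.6, 55.5 and 60.4 CPM per kb, low in replicate 1 and 3.81 to 4.14 times as high in the other 2 libraries. Its log2 level was 2.60 (SE 0.49, adjusted p = 0.0265, limma), or 6.07-fold above the median gene. This call was lost when replicate 2 (2.26, adjusted p = 0.229) or replicate 3 (2.39, adjusted p = 0.179) was left out. It was also lost when all libraries were thinned to the total of replicate 1 (2.33, adjusted p = 0.0655), an alternative chosen once the data had been seen. Relative to the longest annotated transcript, its mean was 96.2 CPM per kb in place of 43.5, which placed it directly below Camk2a.

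Camk2g, the gamma subunit gene (chromosome 14, 20734875 to 20794088, minus strand), had 840, 3537 and 816 counts, or 30.9, 24.1 and 10.9 CPM per kb. Here replicate 1 was highest and replicate 3 lowest, the reverse of Camk2b at both ends. Its log2 level of 1.74 (SE 0.51, adjusted p = 0.294, limma) did not pass the test; if low counts were not filtered, so that the median gene itself was lower, it passed (3.68, adjusted p = 0.00190). Camk2d, the delta subunit gene (chromosome 3, 126596302 to 126846326, plus strand), had 87, 652 and 937 counts, or 0.912, 1.27 and 3.56 CPM per kb, with replicate 3 apart from the other 2. Its log2 level was -1.90 (SE 0.79, adjusted p = 0.402, limma). That value rests on the 22.5 kb of all annotated Camk2d exons: against the longest transcript of 5.52 kb the level was -0.33 and the mean 7.79 CPM per kb instead of 1.91, and with no correction for length the sign turned (0.24).

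Within each library the makeup of the CaMKII genes does not depend on how libraries were scaled. Camk2a supplied 97.6, 91.1 and 94.2% of the summed CaMKII level per kb in replicates 1 to 3, averaging 94.3% ± 3.28 (SD, n = 3). Camk2b supplied 0.742, 6.13 and 4.67%, or 3.85% ± 2.79, and Camk2g 1.58, 2.66 and 0.844%, or 1.69% ± 0.916. Camk2d supplied 0.0464, 0.140 and 0.276%, or 0.154% ± 0.115, and 0.406% per kb of the longest transcript. As shares of the raw CaMKII counts, Camk2b held 0.907% in replicate 1 (Wilson 95% interval 0.835 to 0.984), 7.40% in replicate 2 (7.27 to 7.53) and 5.63% in replicate 3 (5.50 to 5.76). These intervals do not overlap between any 2 libraries, so the makeup differed between libraries by more than counting error. Of all tested genes, 97.4% varied between libraries beyond counting noise (Poisson chi-square test), so this says nothing particular about the CaMKII genes.

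**Figure D3:**
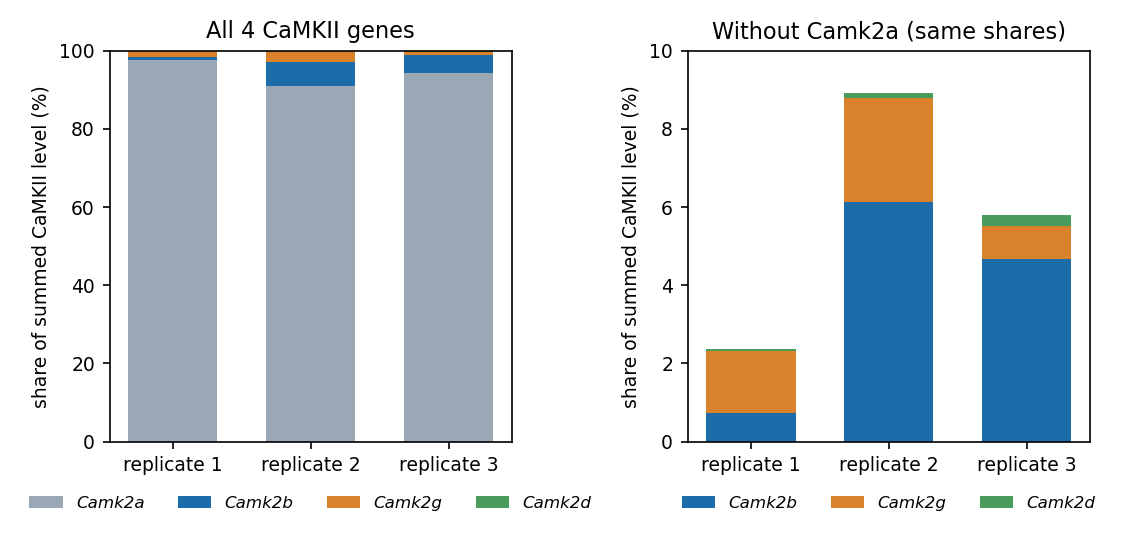
Share of each CaMKII gene in the summed CPM per kb of the 4 genes, 1 bar per library, with all 4 genes on the left and the same shares without Camk2a on the right. Camk2a takes 91.1 to 97.6%, and the Camk2b share is 0.742% in replicate 1 against 6.13 and 4.67% in replicates 2 and 3.

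Camk2a exceeded Camk2b by 7.04, 3.89 and 4.33 on the log2 scale per kb, a mean of 5.09 (SD 1.70, n = 3). That is 132, 14.9 and 20.2 times the Camk2b level, so the ratio in replicate 1 stood far from the other 2. The order of the beta and gamma genes differed between libraries: the log2 difference of Camk2b minus Camk2g was -1.09 in replicate 1, 1.20 in replicate 2 and 2.47 in replicate 3 (mean 0.86, SD 1.80), so their levels could not be ordered. Camk2g exceeded Camk2d by 5.07, 4.25 and 1.61 (mean 3.65, SD 1.81), higher in 3 of 3 libraries. Per kb of the longest transcript that difference was 3.84, 3.01 and 0.38. The exact sign-flip test, two-sided, gave p = 0.25 for each pair that kept its sign in all 3 libraries, which is the smallest p that 3 libraries allow; 9 pairs were compared, and no pair can pass a threshold in this design.

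Camk4, the CREB kinase gene (chromosome 18, 32934931 to 33191228, plus strand), ranked after Camk2a. It had 833, 4221 and 3921 counts, or 60.3, 56.5 and 103 CPM per kb, with replicates 1 and 2 close together and replicate 3 higher. Its log2 level was 3.44, 3.15 and 4.06, a mean of 3.55 (SE 0.44, adjusted p = 5.6e-04, limma), 11.7-fold above the median gene. Its log2 SD of 0.46 was the smallest of the 9 tested kinase genes and larger than that of 16.5% of all tested genes, whose median SD was 0.95. Camk2a exceeded Camk4 by 4.99, 3.86 and 3.56 on the log2 scale per kb, or 31.8, 14.6 and 11.8 times.

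Camk1d, the delta gene of the CaMKI group (chromosome 2, 5293457 to 5714515, minus strand), had 1250, 7883 and 7535 counts, or 39.7, 46.3 and 86.8 CPM per kb. As for Camk4, replicate 3 stood above the other 2 libraries. Its log2 level was 3.17 (SE 0.44, adjusted p = 0.00222, limma), 9.01-fold above the median gene. Camk4 exceeded Camk1d by 0.60, 0.29 and 0.25 on the log2 scale per kb (mean 0.38, SD 0.20), 1.52, 1.22 and 1.19 times, in 3 of 3 libraries. This order turned with no correction for length (-0.81), since Camk1d exons are 7.43 kb long and those of Camk4 3.26 kb.

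Camk1, the alpha gene of the CaMKI group (chromosome 6, 113334124 to 113343984, minus strand), was the lowest member, with 0, 85 and 80 counts. Its level was 0.621 CPM per kb in replicate 2 and 1.15 in replicate 3, and the 0 counts in replicate 1 allow up to 3 counts, or 0.118 CPM per kb. Against that limit Camk1 was at least 5.25-fold higher in replicate 2 and at least 9.68-fold higher in replicate 3. Camk1d was 74.6 and 75.8 times as high as Camk1 per kb in replicates 2 and 3, and at least 335-fold higher in replicate 1. The 2 libraries with Camk1 counts thus gave nearly the same ratio. Per kb of the longest transcript, 2.40 kb for Camk1 against 5.97 kb of all exons, the log2 difference was lower, at 4.94 and 4.99 in those libraries in place of 6.16 and 6.21. Without replicate 1, Camk1 entered the test and was not called.

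The upstream kinase genes differed from each other in opposite ways between libraries. Camkk1 (chromosome 11, 73019008 to 73042073, plus strand) had 725, 1692 and 141 counts, or 45.8, 19.8 and 3.24 CPM per kb, a 14.2-fold range with replicate 1 highest and replicate 3 lowest. Its log2 SD of 2.01 was the largest of the 9 tested kinase genes and larger than that of 90.5% of tested genes. Its log2 level of 1.26 (SE 0.66, adjusted p = 0.710, limma) did not pass the test, and with no filter it did (3.20, adjusted p = 0.0163).

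Camkk2, which also phosphorylates AMP-activated kinase (chromosome 5, 122731170 to 122779409, minus strand), had 73, 816 and 559 counts, or 1.58, 3.26 and 4.38 CPM per kb, lowest in replicate 1. Its log2 level was -1.08 (SE 0.74, adjusted p = 0.813, limma), a sign that turned with no correction for length (0.02). The log2 difference of Camkk2 minus Camkk1 per kb was -4.85 in replicate 1, -2.60 in replicate 2 and 0.42 in replicate 3 (mean -2.34, SD 2.65; exact sign-flip p = 0.50). Camkk1 was thus 29.1 and 6.07 times as high as Camkk2 in replicates 1 and 2, and Camkk2 1.35 times as high as Camkk1 in replicate 3. These folds depend on length, since all Camkk2 exons span 10.9 kb and its longest transcript 4.86 kb. Per kb of the longest transcript the log2 difference was -3.69, -1.44 and 1.59, each of the same sign as per kb of all exons, and with no correction for length its mean was -0.79. Camk4, a substrate of both, exceeded Camkk2 by 38.2, 17.3 and 23.5 times per kb.

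Camkv, the pseudokinase gene (chromosome 9, 107935674 to 107949691, plus strand), had 418, 1808 and 486 counts, or 26.2, 21.0 and 11.1 CPM per kb, highest in replicate 1 and lowest in replicate 3. Its log2 level of 1.60 (SE 0.50, adjusted p = 0.382, limma) did not pass the test, and with no filter it did (3.54, adjusted p = 0.00283). Per kb of all exons Camkv lay next to Camk2g in every library, with log2 differences of Camk2g minus Camkv of 0.24, 0.20 and -0.02. This closeness depends on the length used. Per kb of the longest transcript the mean was 38.0 CPM per kb for Camk2g and 22.3 for Camkv, with Camkk1 at 23.0 between them. Against Camk2b the log2 difference of Camkv per kb of all exons was 0.85 in replicate 1 and -1.40 and -2.45 in replicates 2 and 3. Per kb of the longest transcript these were -0.10, -2.35 and -3.39, so the sign in replicate 1 turns with the length used.

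Ordered by mean level per kb, Camk2a at 1320 ± 554 CPM per kb (SD, n = 3) was followed by Camk4 at 73.2 ± 25.8, Camk1d at 57.6 ± 25.5, Camk2b at 43.5 ± 25.1, Camkk1 at 23.0 ± 21.5, Camk2g at 22.0 ± 10.2 and Camkv at 19.4 ± 7.69. Below a gap in the means came Camkk2 at 3.07 ± 1.41, Camk2d at 1.91 ± 1.44 and Camk1 at 0.589 ± 0.573. The gap was absent in replicate 3, where Camkk1 at 3.24 CPM per kb lay below Camkk2 (4.38) and Camk2d (3.56). Per kb of the longest transcript, Camkv minus Camk2d was 3.01, 2.22 and -0.19 on the log2 scale. Per kb of all exons, neighbours from Camk1d to Camkv changed places in at least 1 library and could not be ordered on that scale. Camkv exceeded Camkk2 in 3 of 3 libraries, by 4.04, 2.68 and 1.34 on the log2 scale. Camkk2 exceeded Camk2d in 3 of 3 libraries per kb of all exons, by 0.79, 1.36 and 0.30, but per kb of the longest transcript Camk2d was higher in 2 of 3.

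**Figure D4:**
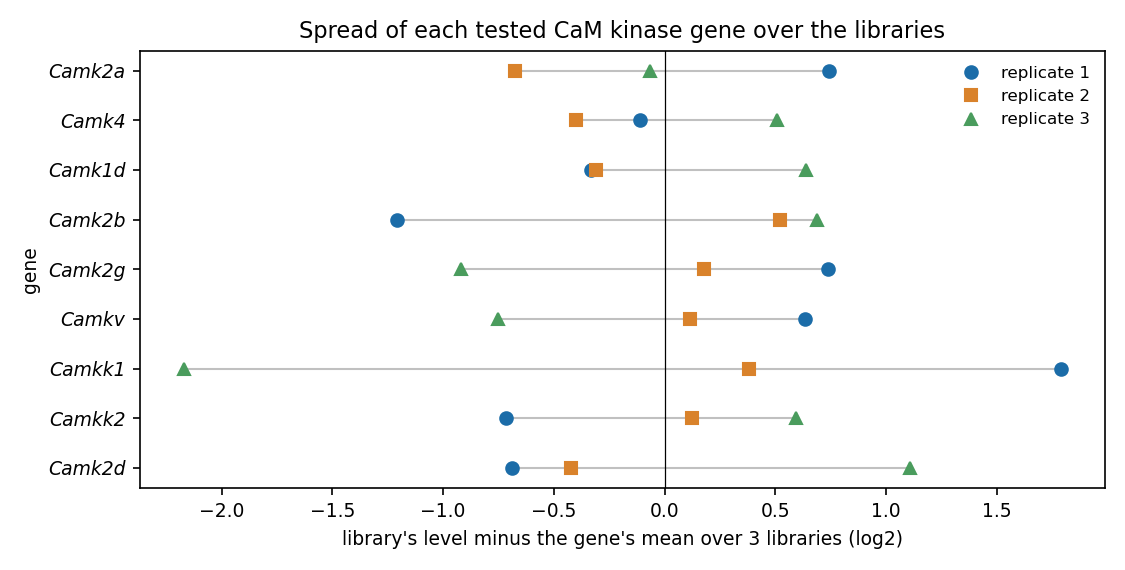
Level of each tested kinase gene in each library minus its mean over the 3 libraries, on the log2 scale against the median tested gene. Camk2a, Camk2g, Camkv and Camkk1 have replicate 1 at the right end and Camk2b, Camk2d, Camk4, Camk1d and Camkk2 replicate 3; Camkk1 has the widest spread (log2 SD 2.01) and Camk4 the narrowest (0.46).

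Between libraries the kinase genes did not move as a block. Camk2a, Camk2g, Camkk1 and Camkv were highest in replicate 1, and the other 6 (Camk2b, Camk2d, Camk4, Camk1, Camk1d and Camkk2) in replicate 3. Lowest in replicate 1 were 5 of the 10, lowest in replicate 2 Camk2a and Camk4, and lowest in replicate 3 Camk2g, Camkk1 and Camkv. Against the median gene of the library the highest and lowest library were the same for 10 of 10 genes, and with DESeq2 size factors for 9 of 10, where the lowest library of Camk1d turned from replicate 1 to replicate 2. Each of the 9 tested kinase genes varied between libraries beyond counting noise (Poisson chi-square test), but so did 97.4% of all tested genes, so this count says nothing particular about the kinases. Marker sums also differed between libraries. Excitatory neuron markers summed to 1262, 529 and 320 CPM, GABAergic markers to 292, 239 and 346, and endothelial and mural markers to 411, 898 and 312. The excitatory sum was highest in replicate 1 and lowest in replicate 3, as were Camk2g, Camkk1 and Camkv. The microglial sum was lowest in replicate 1 and highest in replicate 3, as were Camk2b, Camk2d, Camk1, Camk1d and Camkk2, but that order came mainly from P2ry12 (0, 2.79 and 17.3 CPM), while Csf1r had 3.30, 2.71 and 3.34 CPM. The depth on genes was lowest in replicate 1 and highest in replicate 2. The part of cell makeup, of depth and of the share of reads on genes in the differences between libraries was not tested.

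Around the kinases, 64 genes of the pathway were listed by role, with earlier results of these data known, and 54 were tested. The shares given here and below are therefore descriptive and no test of the lists. Called above the median gene were 17 (31.5%, against 9.58% of all tested genes), 1 was called below (1.85%, against 3.57%) and 36 did not pass; their median log2 level was 1.03, where that of all tested genes is 0 by construction. The lists are uneven, as given list by list below. Of the 18 pathway calls, 15 held whichever replicate was left out.

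Of the calmodulin list, 4 of 5 tested genes (80.0%, against 9.58% of all tested genes) were above the median gene. The median log2 level was 5.18 over those tested. The calmodulin gene Calm2 lay at 7.54 (adjusted p = 4.5e-06, limma) and Calm3 at 5.18 (adjusted p = 1.9e-05). Neurogranin (Nrgn), which holds calmodulin in spines when calcium is low, was also called. Its counts of 1771, 5113 and 446 gave 418, 223 and 38.2 CPM, lowest in replicate 3, and its log2 level of 4.13 fell to 2.32 with no correction for length, where the call was lost (adjusted p = 0.0558). Pcp4, the lowest member, had 1, 5 and 0 counts and was not tested. Of 9 tested CaMKII inhibitors and opposing phosphatases, 4 lay above (44.4%). Ppp3r1 and Ppp3ca, the regulatory and a catalytic subunit gene of the phosphatase calcineurin, lay at 5.48 and 5.17, and Ppm1e, a phosphatase of CaM kinases, at 3.63. Camk2n1, a CaMKII inhibitor gene, lay at 4.32 (adjusted p = 1.2e-04, limma) with 236, 959 and 670 CPM, low in replicate 1 as Camk2b was. The level of Camk2a per kb was 36.1, 3.82 and 8.08 times that of Camk2n1 in replicates 1 to 3, so the ratio of kinase to inhibitor RNA was far higher in replicate 1. Ppp1ca, the lowest member, had 0, 107 and 15 counts.

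**Figure D5:**
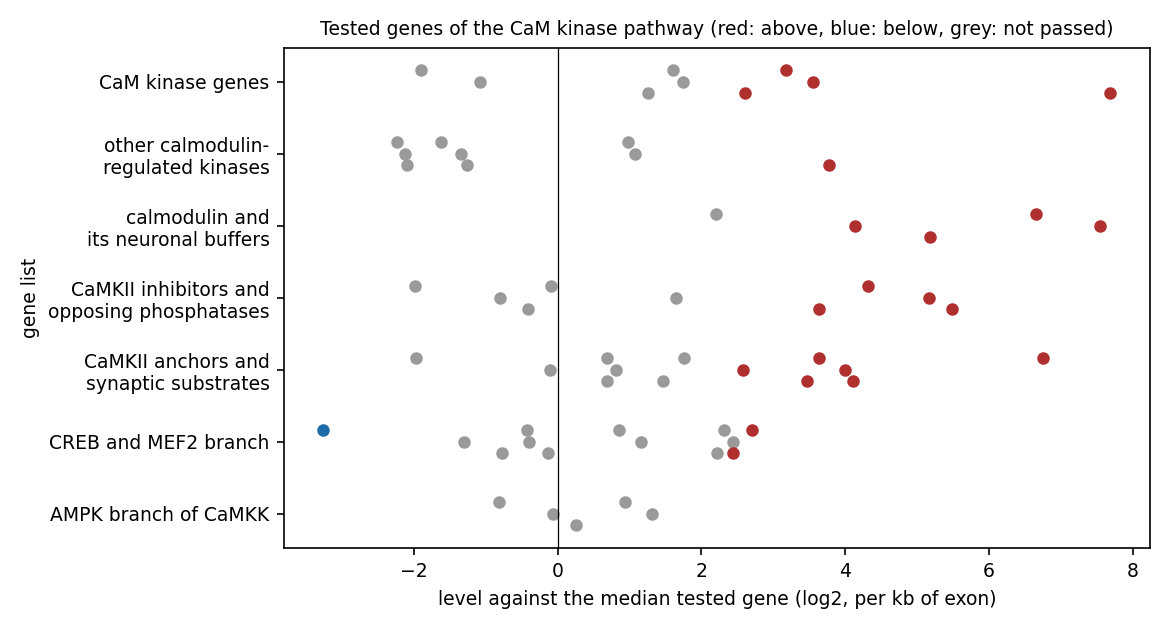
Log2 level against the median tested gene per kb of exon for each tested gene of the kinase family and of 6 pathway lists, 1 dot per gene as the mean of 3 libraries. Red dots are called above the median gene, the blue dot (Crem at -3.26) below it; Calm2 reaches 7.54, close to Camk2a at 7.69.

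Of the CaMKII anchors and synaptic substrates, 6 of 13 tested genes lay above the median gene (median log2 level 1.76). That is 46.2%, against 9.58% of all tested genes. Syn1, which encodes the vesicle protein synapsin, lay at 6.75 with 3566, 1717 and 1589 CPM. Rasgrf1 and Kalrn, exchange factor genes for small GTPases, had 901, 1075 and 1564 CPM and 3793, 1282 and 2540 CPM and were both called. Gria1, an AMPA receptor subunit gene, was called at 3.64 and Lrrc7, a scaffold that binds CaMKII, at 3.47. Grin2b, the NMDA receptor subunit to which active CaMKII docks, did not pass (1.76, adjusted p = 0.302, limma), with 1074, 277 and 437 CPM, highest in replicate 1 and lowest in replicate 2 as Camk2a was. Actn2, the lowest member, had 8, 110 and 230 counts.

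Downstream of CaMKIV, 2 of 13 tested genes of the CREB and MEF2 branch lay above the median gene and 1 below (median log2 level 0.85). The share above, 15.4%, is near the 9.58% of all tested genes, of which 3.57% lay below. Mef2d, an activity-dependent transcription factor gene, lay at 2.70 (adjusted p = 0.0261, limma) and Atf1, a relative of CREB, at 2.44 (adjusted p = 0.0312). The Atf1 call was lost without replicate 2 (adjusted p = 0.0616), without replicate 3 (0.155 as adjusted p) and with no correction for length (1.71, adjusted p = 0.242), and the Mef2d call per kb of the longest transcript (2.40, adjusted p = 0.0619). Both calls were also lost when libraries were thinned to replicate 1, with Atf1 at 2.18 (adjusted p = 0.0725) and Mef2d at 2.44 (adjusted p = 0.0563). Crebbp, the CREB-binding coactivator gene, did not pass (2.44, adjusted p = 0.0661), with 1363, 261 and 242 CPM, far higher in replicate 1. Creb1 itself had 49.5, 52.5 and 93.9 CPM and a log2 level of -0.40 (adjusted p = 0.993). Crem, another relative of CREB and the lowest member, had 12, 90 and 47 counts and lay below the median gene (-3.26, adjusted p = 0.0281), a call lost without replicate 1 (-2.68, adjusted p = 0.126), without replicate 3 (-3.20), per kb of the longest transcript (-2.71) and with no filter (-1.32).

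Of the AMP-activated kinase branch, a target of CaMKK2, 0 of 5 tested genes were called in either direction (median log2 level 0.25). Among all tested genes, 9.58% were called above and 3.57% below. Prkaa1, Prkaa2 and Prkag2 were the highest at 18.3 ± 13.4, 13.2 ± 8.81 and 7.14 ± 0.568 CPM per kb (SD, n = 3), and Prkab1 was the lowest with 8, 67 and 0 counts. The list summed to 462, 243 and 198 CPM, highest in replicate 1 as Camkk1 was and Camkk2 was not. Of other kinases, listed as regulated by calmodulin or as relatives of this family, 1 of 9 tested genes was called. That share of 11.1% is near the 9.58% of all tested genes. The called gene was Dclk1, a doublecortin-like kinase gene of neurons, with 1014, 1462 and 1348 CPM and a log2 level of 3.77 (adjusted p = 2.5e-04, limma). Cask, a synaptic scaffold with a kinase-like domain, and Dapk1 lay at 0.98 and 1.07 and did not pass. Dapk2 and Phkg1 had 0 counts in each library, which allows up to 0.707, 0.131 and 0.257 CPM in replicates 1 to 3. The list also holds the remaining CaMKI genes. Camk1g had 23, 78 and 92 counts and a log2 level of -1.62 (adjusted p = 0.541, limma), and Pnck, the beta gene, had 0, 420 and 52 counts and was not tested.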

How the data were processed

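The authors deposited raw counts of reads per gene symbol, 1 file per library, not normalised and not pooled. STAR 2.0.0e, HTSeq and the mm10 build are named in the submitters' processing notes; annotation, strand setting and filters are not given in the sources used here. Summary rows of the counter were left out of all levels and tests, and used only for the shares on genes and on no feature. Genes were filtered with filterByExpr (1 group), and log2 CPM with TMM factors of 0.793, 1.19 and 1.06 and a prior count of 2 was taken from edgeR 4.0.16 (R 4.3.3). Exon lengths are those of GENCODE vM21 (GRCm38), and the authors may have counted with another annotation; 95.9% of genes past the filter had a length. All annotated exons include those of minor and partial transcripts, which lowers the level per kb of genes with many. Levels per kb minus the library's median tested gene were tested with limma 3.58.1 (intercept only, trend, TREAT) with Benjamini-Hochberg adjustment over all 8162 tested genes. limma was used because 1 group offers no contrast for a count test. A p-value from it rests on the spread between these libraries, moderated toward a trend over all tested genes. A printed SE is therefore not the gene's own alone. Camkk1, with a log2 SD of 2.01, had an SE of 0.66, and Camk4, with an SD of 0.46, one of 0.44. Variation between libraries was tested with a Poisson chi-square test against the shares of the effective library sizes. Both tests were run on simulated data simpler than these libraries, with the same expected shares in each library for most genes. That run does not show how they perform on these data. Members and lists were chosen with earlier results of these data known. Named are the 10 members, the 3 highest and the lowest gene of each pathway list, and the 2 genes above and below Camk2a in level; cell type lists are given as sums. Nrgn, Ppm1e, Gria1, Lrrc7, Grin2b, Creb1, Camk1g, Pnck, Calb1, Slc1a2, P2ry12, Csf1r and C1qa were named after their values were seen. Some listed genes are not reported here. Alternatives were no correction for length, the longest transcript, no filter, DESeq2 1.42.0 size factors, a lower prior count of 0.5, library sizes without ribosomal protein or mitochondrial-encoded genes, each replicate left out and, added after seeing the data, thinning. Figures were drawn with matplotlib 3.10.9.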

Additional observations from a re-analysis of the deposited data

How the results depend on the processing

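No paired analysis was possible because there is 1 group. The calls of Camk2a, Camk4 and Camk1d held under each alternative run, and that of Camk2b ended under 3. With no filter, 7 of 10 kinase genes and 32 pathway genes lay above the median gene and 0 pathway genes below, against 17.7% of all genes above; there Camk2d lay at 0.04 and Camkk2 at 0.86. With no correction for length Camk2d lay at 0.24 and Camkk2 at 0.02, 2 pathway genes lay below, Camk4 minus Camk1d was -0.81, Camk2g minus Camk2d 1.83, Camk4 minus Camk2a -5.34, Camkk2 minus Camk4 -2.89 and the Camk2d share 0.458%. With the longest transcript Camkk2 minus Camk4 was -3.73, the Camk2d share 0.406% and 0 pathway genes lay below. Without replicate 1, 4 kinase genes lay above the median gene, against 14.6% of all tested genes. Without replicate 2 it was 3, against 7.28%, and without replicate 3 also 3, against 7.13%. With each replicate left out, 0 to 1 pathway genes lay below the median gene. For Camk1 in replicate 1, 0 counts allow up to 0.707 CPM, which is below its 3.71 and 6.84 CPM in replicates 2 and 3.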
